A study of Homo sapiens with 7 samples.

Results

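The siRNA 2 course follows the mature miRNAs of HepG2, an established human hepatocellular carcinoma line, from untreated cells through 24, 36 and 48 h of an siRNA against TEAD1. Its members are all human miRNA entries with a mean count of at least 10 over the 4 libraries of the course, which are 465 of the 2652 entries and hold 99.9% of the miRNA reads. The members just inside the threshold had a mean count of 10 and those just outside 9.75. The untreated library is the 0 h point, and the 3 treated libraries received the second of the study's 2 siRNAs, called siRNA 2 in the labels. All cells are labelled wild type, and no library of cells given a control siRNA is among the groups, so loss of TEAD1, transfection and time in culture cannot be told apart. Each time has 1 library, and the labels do not state whether cultures were separate. The p-values therefore measure only the scatter of these libraries about a fit. That scatter may be technical or hold changes in time that the fit leaves out. The mRNA of TEAD1 was not measured here, so the knockdown has no check in these libraries.

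TEAD1 is a DNA-binding transcription factor through which the coactivators YAP and TAZ of the Hippo pathway act. A miRNA is cut from a hairpin precursor by Drosha and Dicer, which can leave a mature strand from either arm of the hairpin (5p and 3p). The seed, bases 2 to 8 of the mature strand, pairs with target mRNAs, and miRNAs that share a seed are grouped as a family with overlapping targets. Liver cells are known for miR-122, and carcinoma lines for high levels of miR-21 and of the miR-17-92 cluster.

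The libraries held 13134601 to 15591345 reads. Reads assigned to a miRNA numbered 6171851 in the untreated library and 2808944, 2070547 and 2095438 at 24, 36 and 48 h of siRNA 2. They made up 43.1% of the untreated library (95% exact Clopper-Pearson interval 43.1% to 43.2%) and 18.0%, 15.8% and 15.9% of those at the 3 times, and the part this difference plays in the results below was not tested. Levels are in CPM, miRNA counts per 1000000 after TMM scaling. An entry with 0 reads may stand for up to 3, which is 0.543 CPM in the untreated library and 1.23, 1.26 and 1.29 CPM in the treated ones. Only 3 members were at 0 in any library, and none of them in the untreated one. Since the files hold no molecular identifiers, every interval and limit covers counting error only.

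The sequences that the results turn on are printed 5′ to 3′ with the seed in capitals, as the deposited files give them. RefSeq's table for GRCh38.p14 holds 417 of the 465 members, with the same mature sequence in 417. The first set shares the seed of the miR-17 family, which represses E2F transcripts, and is ordered from the lowest to the highest share of G and C.
miR-20a-5p: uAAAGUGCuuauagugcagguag
miR-106b-5p: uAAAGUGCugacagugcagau
miR-106a-5p: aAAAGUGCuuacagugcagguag
miR-17-5p: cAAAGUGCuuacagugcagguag
miR-93-5p: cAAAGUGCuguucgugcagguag
The seeds of miR-25 and miR-92, of miR-130 and miR-301, of miR-29 and of let-7 follow, again with the strand poorer in G and C before the richer ones, because members of each pair or trio differed in the size or direction of their step from 24 to 36 h.
miR-32-5p: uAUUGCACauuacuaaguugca
miR-25-3p: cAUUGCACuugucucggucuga
miR-92a-3p: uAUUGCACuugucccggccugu
miR-301a-3p: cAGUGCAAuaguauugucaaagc
miR-130b-3p: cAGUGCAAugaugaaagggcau
miR-29b-3p: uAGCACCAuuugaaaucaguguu
miR-29a-3p: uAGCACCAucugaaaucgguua
let-7f-5p: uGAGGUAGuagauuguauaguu
let-7b-5p: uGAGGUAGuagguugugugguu
The next pairs are the 2 arms of single hairpins, whose levels separated along the course.
miR-340-5p: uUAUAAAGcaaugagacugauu
miR-340-3p: uCCGUCUCaguuacuuuauagc
miR-18a-5p: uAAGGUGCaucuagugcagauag
miR-18a-3p: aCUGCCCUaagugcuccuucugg
miR-671-5p: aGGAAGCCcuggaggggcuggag
miR-671-3p: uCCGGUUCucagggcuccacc
The last set holds miRNAs with a low step from 24 to 36 h (miR-374a-3p, miR-542-3p, miR-590-3p and miR-101-3p), those that differed from untreated cells at 24 h (miR-122-5p, miR-1246), the one with the smallest p-value of the trend (miR-7-5p) and 1 that was high from 36 h (miR-615-3p).
miR-374a-3p: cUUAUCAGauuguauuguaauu
miR-542-3p: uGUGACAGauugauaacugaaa
miR-590-3p: uAAUUUUAuguauaagcuagu
miR-101-3p: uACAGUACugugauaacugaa
miR-122-5p: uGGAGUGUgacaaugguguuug
miR-1246: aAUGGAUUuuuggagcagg
miR-7-5p: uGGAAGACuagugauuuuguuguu
miR-615-3p: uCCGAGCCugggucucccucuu

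On a common scaling of all 7 libraries of the series, with 458 members, the library labelled siRNA 2 at 36 h was 2-fold or more from the 48 h libraries of siRNA 1 and siRNA 2 for 33 and 60 members, and from their 24 h libraries for 144 and 142. The library labelled siRNA 1 at 36 h was that far from the 24 h libraries of siRNA 1 and siRNA 2 for 36 and 52 members, and from their 48 h libraries for 135 and 120. Each 36 h library thus lay near another time, and whether their labels were exchanged was not tested. With the siRNA 1 library in the place of the siRNA 2 one, 50 members instead of 149 would differ between 24 and 36 h and 125 instead of 63 between 36 and 48 h, so every statement on the timing of a step rests on that label, whereas the 24 and 48 h values do not.

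By the labels, the course was not even in time: the 24 h library lay close to the untreated one for most miRNAs, and the largest step fell between 24 and 36 h. At 24 h, 50 of 465 members (10.8%) were at least 2-fold from untreated cells, 27 higher (5.81%) and 23 lower (4.95%). At 36 h the number was 135 (29%), with 48 higher (10.3%) and 87 lower (18.7%), and at 48 h it was 126 (27.1%), with 46 higher (9.89%) and 80 lower (17.2%). From 24 to 36 h, 149 members (32%) differed by 2-fold or more, 68 up (14.6%) and 81 down (17.4%), whereas from 36 to 48 h only 63 did (13.5%), 28 up (6.02%) and 35 down (7.53%). The SD of the log2 ratio over members was 0.69 at 24 h against untreated, 1.14 for 36 against 24 h and 0.66 for 48 against 36 h. With the 48 h library in place of the 36 h one, 117 members differed from 24 h by 2-fold or more, 53 up and 64 down. These counts compare 1 library with 1 other and have no replicate check.

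The split into higher and lower members depends on the scale. With total miRNA counts in place of TMM factors the median log2 ratio of all members shifted to 0.34 at 36 h, 0.31 at 48 h and 0.42 for 36 against 24 h, and the counts became 90 higher and 59 lower at 36 h, 89 and 54 at 48 h, and 115 and 51 for the step. With all reads of the library as the scale the medians were -1.33 at 24 h, -1.07 at 36 h and -1.08 at 48 h, so 351 members were 2-fold lower and 7 higher at 24 h, 250 and 15 at 36 h, and 248 and 8 at 48 h. On that scale the step from 24 to 36 h had a median of 0.23, with 89 members up and 57 down. All ratios below are on the TMM scale, where the medians of the 5 comparisons lay between -0.06 and 0.03, and are thus relative to the median member.

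**Figure D1:**
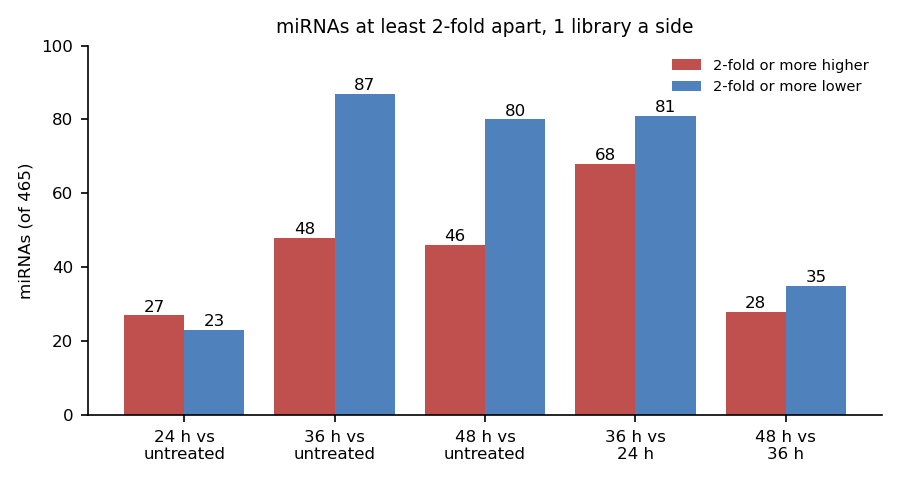
Bars give the number of members, of 465, that were at least 2-fold higher (red) or lower (blue) in the first library named under each pair than in the second, with 1 library a side and TMM-scaled CPM. The step from 24 to 36 h holds 68 and 81 members, that from 36 to 48 h 28 and 35.

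Read as courses, 269 members stayed within 2-fold of untreated cells at all 3 times. Another 52 were within 2-fold at 24 h and at least 2-fold lower at both 36 and 48 h, and 14 were so on the higher side. Only 4 members were 2-fold lower at all 3 times and 12 were 2-fold higher. Members past 2-fold at a single time numbered 20 at 24 h, 48 at 36 h and 32 at 48 h. Of the 52 that were low from 36 h on, 32 had a mean count of at least 50, beside 283 of all 465, and 45 had a G and C content of 50% or less, beside 259 of 465. Of the 12 that were high from 24 h on, 2 had a mean count of at least 50. Of the same 12, 8 had more than 60% G and C, beside 97 of 465. These 12 include miR-663a, with 2 reads in the untreated library and 12, 27 and 4 in the treated ones. They also include miR-4485-3p and miR-10396b-3p, whose reads are given below. All of these met the mean count threshold for members only through the treated libraries. Since miR-663a and miR-10396b-3p have more than 60% G and C, that share is set in part by the filter.

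**Figure D2:**
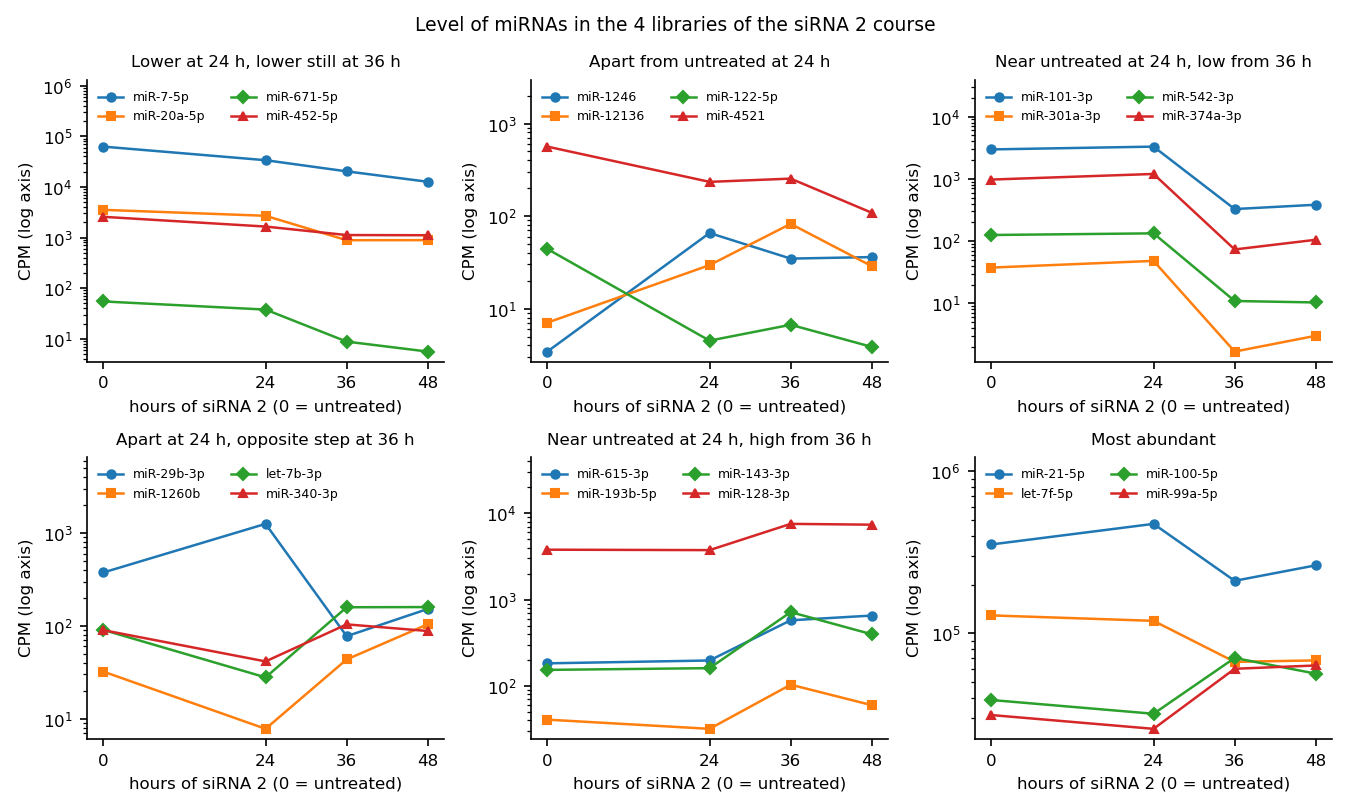
Each line is 1 miRNA in the untreated, 24, 36 and 48 h libraries, in CPM on a log axis, with 1 library per point and so no error bar. In the panel of miRNAs low from 36 h, miR-101-3p goes from 3289 CPM at 24 h to 326 at 36 h, while in the first panel miR-7-5p is lower at every time.

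A linear trend over 48 h was fitted to the 4 libraries, which leaves 2 residual degrees of freedom. Any departure from a straight line in hours counts as scatter in this fit, so a course that moves in a step adds to the error. edgeR's quasi-likelihood test with Benjamini-Hochberg adjustment called 0 of 465 members (0%), of which 52 had an unadjusted p under 0.05. By limma-voom there were 0 calls and 61 members under 0.05, and DESeq2 called 20 (4.3%), 7 up and 13 down. A level common to the 3 times against untreated cells was called for 0 members by edgeR (0%; 19 at an unadjusted p under 0.05), 0 by limma-voom (19) and 3 by DESeq2 (0.645%). Any change among the 3 times counts as scatter there. The miRNAs below are therefore named by the smallest p-values or by the size of the ratio. Except where DESeq2 is named, none passed these tests of the 465 members in the 4 libraries on the TMM scale. Leaving out the 24 h library, edgeR called 15 trends, 1 up and 14 down, and leaving out any other single library it called 0.

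miR-7-5p, which represses EGFR, had the smallest p-value. Its level was 62580, 33735, 20314 and 12642 CPM in the untreated, 24, 36 and 48 h libraries, lower at each time than at the one before. The slope was -2.30 ± 0.33 (log2 over 48 h ± SE), with an unadjusted p of 0.00043 and an adjusted p of 0.200 by edgeR, and DESeq2 called it (adjusted p 0.00196). In a fit of all 7 libraries of the series with a slope for each siRNA, its siRNA 2 slope was -2.32 ± 0.32 and edgeR's adjusted p was 0.0425, the 1 call in that fit. Its precursors include those at chr9:83969811-83969834 on the minus strand, within HNRNPK, and at chr19:4770700-4770723 on the plus strand, in an intron of MIR7-3HG (GRCh38, mature strand, GENCODE 29). The other strand of the HNRNPK hairpin, miR-7-1-3p, followed another course, at 52.6, 47.2, 5.86 and 13.3 CPM in the same order. It was level at 24 h, lowest at 36 h and in part back at 48 h.

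Among the other 9 trends downward with the smallest p-values, miR-4521 stood at 563, 234, 254 and 109 CPM and miR-452-5p, encoded in GABRE, at 2567, 1648, 1120 and 1110 CPM. Both were already lower at 24 h. Of the others, miR-20a-5p, miR-671-5p, miR-340-5p, miR-21-3p, miR-19a-3p and miR-106a-5p had log2 ratios of -0.64 to -0.27 at 24 h and of -3.33 to -1.39 at 36 h. In each of these the step from 24 to 36 h was larger than that up to 24 h. edgeR's adjusted p was 0.394 for each of these and for miR-122-5p. DESeq2 called miR-122-5p, miR-4521, miR-20a-5p, miR-671-5p, miR-340-5p and miR-19a-3p among its 13 downward trends, the others being miR-7-5p, miR-101-3p, miR-19b-3p, miR-301a-3p, miR-32-5p, miR-374a-3p and miR-542-3p.

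The upward trends with the smallest p-values included miR-139-5p, from an intron of PDE2A, at 220.3, 380.2, 486 and 608 CPM. It was higher at each time than at the one before, with a slope of 1.47 ± 0.37 and an adjusted p of 0.394 by edgeR. miR-615-3p, encoded within the HOXC genes, stood at 183, 198, 577 and 655 CPM, near the untreated level at 24 h and more than 3-fold above it later. miR-7706, encoded in AKAP13, had a like form at 388, 537, 1408 and 1205 CPM. miR-6866-5p was at 21.0, 42.2, 125 and 79.0 CPM, highest at 36 h. DESeq2's 7 upward calls were miR-615-3p, miR-7706, miR-6866-5p, miR-12136 and 3 members of low count (miR-7704, miR-4485-3p and miR-10394-3p).

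The miR-193b-365a cluster on chromosome 16, within MIR193BHG, showed arms of unlike course. The 3p strands miR-193b-3p, at 393, 476, 577 and 711 CPM, and miR-365a-3p, at 171, 208, 226 and 333 CPM, were higher at each time than at the one before. The counts of miR-365a-3p and miR-365b-3p are uncertain, since the 2 mature sequences are identical. The 5p strands peaked at 36 h, with miR-193b-5p at 40.9, 32.0, 104 and 60.1 CPM and miR-365a-5p at 238, 284, 802 and 348 CPM. On the scale of all reads the slopes of miR-193b-3p, miR-365a-3p and miR-365b-3p, and that of miR-197-3p, took the opposite sign, at -0.30, -0.26, -0.10 and -0.17.

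At 24 h the lowest ratio among members with a mean count of at least 50 was that of miR-122-5p, the defining miRNA of hepatocytes. It had 244 reads in the untreated library and 11, 16 and 9 in the treated ones, or 44.1, 4.51, 6.69 and 3.86 CPM. All 3 treated libraries were low, with a log2 rate ratio of -3.29 (95% exact Poisson interval -4.31 to -2.43) at 24 h, and the course coefficient was -3.12 ± 0.53 with adjusted p values of 0.593 (edgeR) and 0.0150 (DESeq2). miR-4521 was lower at 24 h by -1.27 (95% exact Poisson interval -1.40 to -1.14). miR-675-5p, cut from the imprinted long non-coding RNA H19, was at 206, 99.7, 102 and 106 CPM, about 2-fold below untreated cells at each time and level among the 3.

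On the higher side miR-1246 led at 24 h, with 19 reads in the untreated library and 160, 83 and 84 in the treated ones. Its level was 3.44, 65.6, 34.7 and 36.1 CPM, and the log2 rate ratio at 24 h was 4.26 (95% exact Poisson interval 3.56 to 5.02). The course coefficient was 3.71 ± 0.74, with adjusted p values of 0.650 (edgeR) and 0.000471 (DESeq2). miR-12136 followed with 7.05, 29.5, 82.4 and 28.8 CPM, highest at 36 h.

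The sequence of miR-1246 occurs within U2 small nuclear RNA and that of miR-12136 within the mitochondrial serine tRNA MT-TS1, so reads of those RNAs could be counted as these miRNAs. In all, 9 members match or lie within a small nuclear, nucleolar, ribosomal or mitochondrial RNA of GENCODE 29 or RefSeq. Of these 9, 5 were at least 2-fold higher at 24 h, where 5.81% of all members were, 5 at 36 h (10.3%) and 6 at 48 h (9.89%), and 0 were 2-fold lower at any time. A hand-made list of entries within structural RNAs, which partly overlaps this set, has 7 members, of which 4 were 2-fold higher and 1 lower at 24 h, the latter miR-1260b at -1.96. The median log2 ratio of the 9 matches was 1.18, 1.49 and 1.70 at the 3 times, beside -0.06, -0.01 and 0.02 over all members. The 9 include miR-4485-3p, which lies in the mitochondrial ribosomal RNA MT-RNR2 and had 3, 12, 47 and 20 reads. They also include miR-10396b-3p, which lies in the 45S ribosomal RNA gene and had 7, 11, 14 and 11 reads. Both had fewer than 10 reads in the untreated library and met the mean count of 10 only through the treated ones. The share of the 9 that was 2-fold higher is thus set in part by that filter. miR-1843, within the small Cajal body RNA SCARNA3, stood at 45.0, 52.5, 48.1 and 48.1 CPM and did not follow the others.

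Several miRNAs were displaced at 24 h and took the opposite step by 36 h. miR-29b-3p, which represses collagens and DNA methyltransferases, was at 375, 1252, 77.4 and 152 CPM, so it was highest at 24 h and lowest at 36 h. miR-29c-3p, with 37, 73, 8 and 24 reads, had the same form, whereas miR-29a-3p stayed between 1348 and 1933 CPM. miR-16-5p, which targets BCL2 and cyclin transcripts, stood at 670.2, 1666, 657 and 1003 CPM. In the other direction let-7b-3p was at 90.4, 27.9, 159 and 159 CPM and miR-1260b at 32.2, 7.79, 43.5 and 104 CPM, both lowest at 24 h. miR-1247-3p, encoded in DIO3OS, was at 35.6, 7.79, 21.8 and 18.5 CPM and also lowest at 24 h, while miR-324-5p, at 33.3, 69.3, 51.9 and 63.1 CPM, was highest there.

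The step from 24 to 36 h brought the lowest ratios of the course. miR-301a-3p went from 117 reads at 24 h to 4 at 36 h and 7 at 48 h, a log2 rate ratio of -4.84 (95% exact Poisson interval -6.74 to -3.45) for the step. miR-374a-3p stood at 972, 1196, 73.2 and 105 CPM, miR-542-3p at 125, 133, 10.9 and 10.3 CPM and miR-590-3p at 33.6, 44.7, 3.77 and 5.15 CPM. miR-101-3p, a repressor of EZH2, stood at 2965, 3289, 326 and 383 CPM. For all 5 the 24 h library was at or above untreated cells, with log2 ratios of 0.09 to 0.40, and the 36 and 48 h libraries were both low. miR-582-3p, at 8109, 10609, 2073 and 2460 CPM, was an abundant member with this form.

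The highest steps from 24 to 36 h were those of miR-451a, let-7b-3p, miR-1260b, miR-143-3p and miR-193b-5p. miR-451a, an erythroid miRNA that is cut without Dicer, was at 11.4, 12.7, 74.1 and 33.1 CPM. miR-143-3p, known from smooth muscle and fibroblasts, was at 154, 161, 718 and 398 CPM. Both were near the untreated level at 24 h, highest at 36 h and lower again at 48 h.

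The miR-17-92 cluster, a polycistron in MIR17HG on chromosome 13 that MYC induces, held members of unlike course. Of its 9 members, 6 were at least 2-fold lower at 36 h (18.7% of all members) and 6 at 48 h (17.2%), with medians of -1.32 and -1.53 beside -0.01 and 0.02 over all members. DESeq2 called 3 of the 9 as downward trends, beside 13 of all 465 members, and edgeR called 0. miR-20a-5p was at 3526, 2689, 886 and 889 CPM and miR-17-5p at 2448, 2071, 982 and 1090 CPM. miR-19a-3p was at 143, 119, 21.8 and 21.5 CPM and miR-19b-3p at 170.4, 196, 31.0 and 30.1 CPM. These 4 strands were low in both late libraries, while miR-92a-3p, from the same transcript and from MIR92A2 on the X chromosome, was at 14525, 11670, 23307 and 20222 CPM and thus higher in both. The arms of miR-18a parted in the same way, with the 5p strand at 55.9, 55.8, 10.9 and 15.9 CPM and the 3p strand at 30.6, 27.5, 54.4 and 54.5 CPM. On the scale of all reads the ratio of miR-92a-3p to untreated cells turns negative, since it lies below the shift of the median, but its step from 24 to 36 h stays positive on every scale tried.

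The miR-106b-25 cluster, in an intron of MCM7 on chromosome 7, differed within itself as well. miR-106b-5p was at 344, 338, 52.7 and 91.9 CPM, with its low point at 36 h. miR-93-5p, which shares its seed, was at 1618, 1209, 1135 and 1172 CPM and miR-25-3p at 5252, 3977, 6551 and 5780 CPM. At 36 h, 1 of the 6 members of this cluster was 2-fold lower, a share near that of all members (18.7%). For the step from 24 to 36 h the median of the cluster was 0.25, against -1.44 for miR-17-92 and 0.02 over all members.

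Among the miRNAs with the seed of miR-25 and miR-92, miR-32-5p was at 277, 274, 35.1 and 52.8 CPM, a step of -2.94 from 24 to 36 h, where miR-25-3p had 0.72 (log2). In the family of miR-130, miR-301 and miR-454, 3 of 5 members were 2-fold lower over that step (17.4% of all members), and none was higher than untreated cells at 36 or 48 h. The step of miR-301a-3p (39.1% G and C) was -4.40, and that of miR-130b-3p (45.5%) -0.63. For miR-454-3p, with the least G and C of the 5 (34.8%), it was -1.35, so the family did not follow the order of G and C. The 4 strands of the miR-374 family had a median of -1.77 at 36 h and -1.51 at 48 h, and 3 of 4 were 2-fold lower at each (18.7% and 17.2% of all members).

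The let-7 family, which represses RAS and HMGA2 and whose precursors LIN28 blocks, held 4 of the 10 most abundant miRNAs. let-7f-5p was at 128971, 119372, 66691 and 68080 CPM, close to untreated at 24 h and near 2-fold lower at 36 and 48 h. let-7g-5p was at 41718, 28346, 23972 and 23160 CPM and let-7i-5p at 66844, 56077, 51387 and 40940 CPM. let-7a-5p stayed between 28408 and 32658 CPM, and let-7b-5p was higher at the late times, at 6672, 6983, 10069 and 10630 CPM. None of the 9 mature strands of the family was 2-fold from untreated cells at any time, as was so for 269 of all 465 members.

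miR-99a-5p and miR-100-5p, which share a seed and repress MTOR, were higher in the late libraries than at 24 h. miR-99a-5p was at 31339, 25766, 60451 and 63350 CPM and miR-100-5p at 38803, 31912, 70479 and 56413 CPM. All 3 members of that family and both of the miR-125 family, whose genes lie beside let-7 and miR-99 and miR-100 genes, were lower than untreated at 24 h and higher at 36 and 48 h. miR-125a-5p was at 607, 449, 1214 and 1337 CPM. On the scale of all reads the family medians at 36 h were -0.23 and -0.37 against untreated cells, so the direction against untreated turns with the scale, whereas the step from 24 to 36 h had medians of 1.14 and 1.09 on the TMM scale and 1.36 and 1.30 on that of all reads.

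miR-21-5p was the most abundant miRNA in every library of the course, at 353133, 473101, 210749 and 262542 CPM. It made up 31.6%, 41.1%, 24.3% and 29.2% of the members' CPM in course order, highest at 24 h and lowest at 36 h. let-7f-5p and miR-30a-5p had the next highest mean levels, the latter at 71006, 70932, 48964 and 48548 CPM, and miR-148a-3p, abundant in liver, was at 17870, 25032, 14118 and 14341 CPM. The 10 most abundant miRNAs together held 75.4%, 77.5%, 68.9% and 69.3%.

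**Figure D3:**
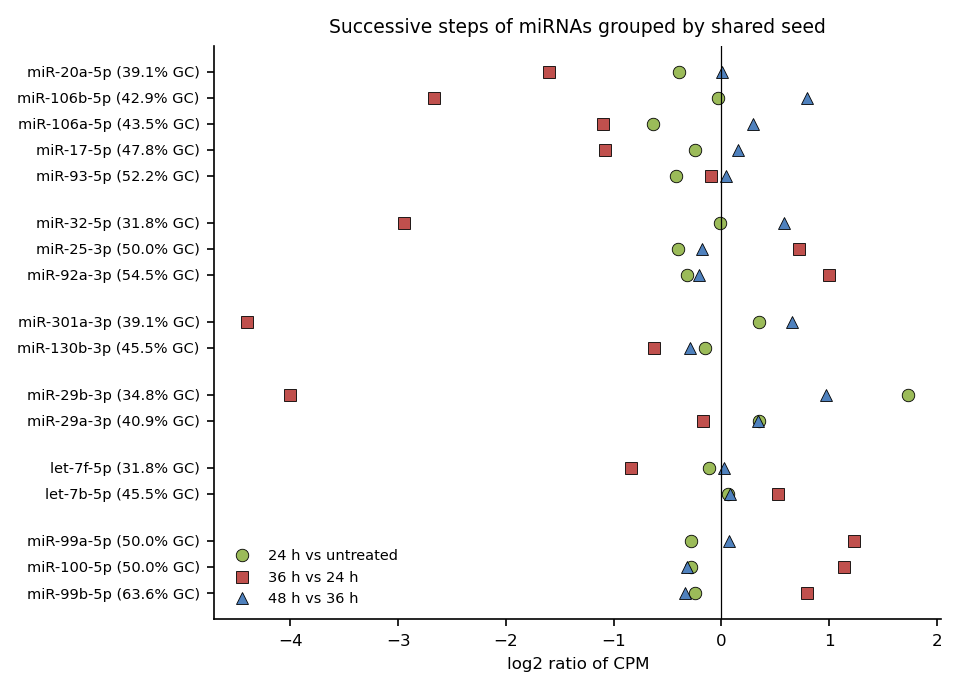
Points give the log2 ratio of CPM for each step of the course (circle 24 h against untreated, square 36 against 24 h, triangle 48 against 36 h) for miRNAs grouped by shared seed, with the G and C content beside each name. The squares of miR-20a-5p (-1.60) and miR-93-5p (-0.09), or of miR-301a-3p (-4.40) and miR-130b-3p (-0.63), lie apart within 1 seed. miR-454-3p shares the seed of the latter pair and is not drawn. It has less G and C than both (34.8%) and stepped by -1.35.

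The step from 24 to 36 h went with base composition, a property that the choice of members did not use. For the step from 24 to 36 h the median log2 ratio was -1.78 for the 11 members with up to 30% G and C and -0.79 for the 68 with over 30% and up to 40%. It was -0.07 for the 180 members up to 50%, 0.29 for the 109 up to 60% and 0.41 for the 97 above, so the order held also without the class of 11. Of the 68 members between 30% and 40%, 27 (39.7%) were 2-fold lower over the step, and of the 97 above 60%, 5 (5.15%). Across the 465 members the log2 step had a Pearson correlation of 0.39 and a Spearman correlation of 0.38 with G and C content. The same correlations were 0.04 and -0.08 for 24 h against untreated and -0.15 and -0.12 for 48 against 36 h. In comparisons without the 36 h library they were 0.33 and 0.32 for 48 against 24 h, and 0.35 and 0.31 for 48 h against untreated. These are across miRNAs that share 2 libraries, their depth and their ligation, are no replicates and carry no test. For the 283 members with a mean count of at least 50 the values of the step were 0.44 and 0.41.

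Within seeds and hairpins the counts for this step leaned the same way, and those of hairpins less so for 48 h against untreated cells. Of 27 seeds shared by 2 or more members of unlike G and C content and a mean count of at least 50, the member with the least G and C was lower than the one with the most in 19 for the step from 24 to 36 h, in 10 for 24 h against untreated, in 11 for 48 against 36 h and in 21 for both 36 h and 48 h against untreated. Both arms had a mean count of at least 50 for 61 hairpins, and 56 of these had arms that differ in G and C. The arm poorer in G and C had the lower ratio in 39 of 56 for the step, in 23 for 24 h against untreated, in 21 for 48 against 36 h, in 35 for 36 h against untreated and in 32 for 48 h against untreated.

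Arms of 20 hairpins parted by 2-fold or more between 24 and 36 h. The 5p strand of miR-340 was at 1127, 841, 111 and 112 CPM and the 3p strand at 89.9, 41.4, 104 and 88.0 CPM, so that the abundant arm was low and the other was not. Exceptions to the relation were present. miR-671-5p, with 69.6% G and C, was at 54.6, 37.7, 8.79 and 5.58 CPM, whereas miR-671-3p, with 66.7%, was at 48.1, 27.5, 84.9 and 91.0 CPM. miR-365a-3p, with 31.8%, and miR-6866-5p, with 39.1%, were higher at the late times. Whether preparation of the libraries or the cells set this relation was not tested. With a linear G and C trend per library removed, 140 members differed by 2-fold or more between 24 and 36 h, 53 up and 87 down, beside 68 up and 81 down without removal. Whether these were the same members was not examined.

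**Figure D4:**
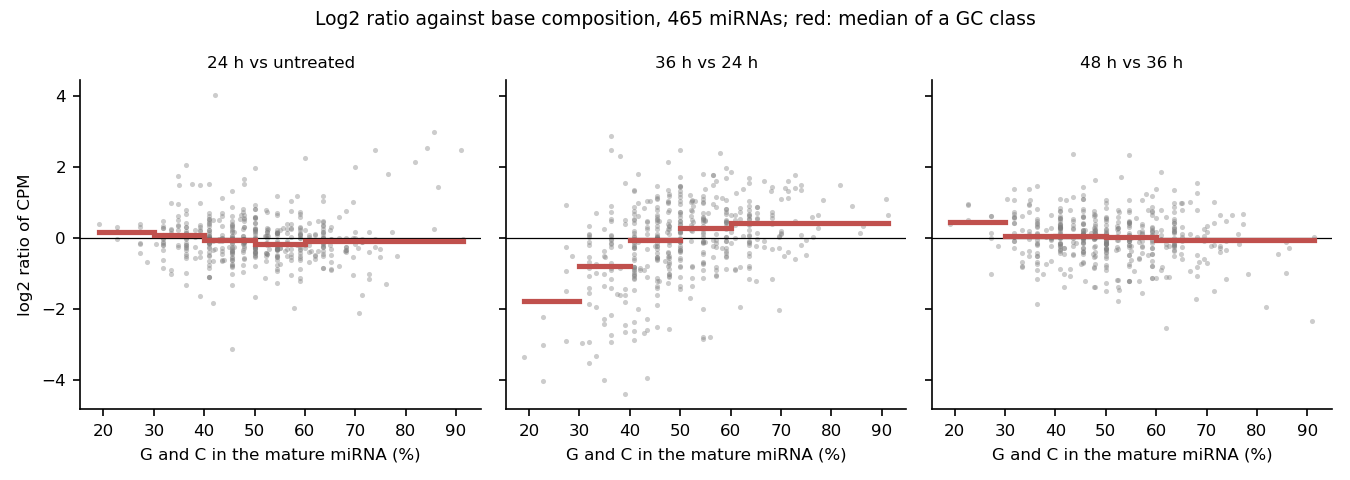
Each grey point is 1 of the 465 members, with its G and C content on the horizontal axis and its log2 ratio on the vertical axis, and red lines give the median of each content class. The medians climb from -1.78 to 0.41 in the middle panel (36 against 24 h) and stay between -0.16 and 0.16 in the left one (24 h against untreated).

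Between 36 and 48 h fewer miRNAs differed. miR-210-3p, which hypoxia induces through HIF1A, was at 143, 160.4, 145 and 369 CPM, level until 36 h and higher at 48 h alone. miR-4443 was at 18.5, 14.8, 31.0 and 103 CPM, miR-328-3p at 15.7, 15.6, 23.4 and 57.5 CPM and miR-574-3p at 80.3, 128, 69.0 and 158 CPM. miR-1260b was highest at 48 h. The lowest steps were those of miR-1292-5p, at 16.5, 12.7, 32.6 and 9.44 CPM, then miR-12136, miR-4521 and miR-365a-5p, and miR-92a-1-5p at 28.4, 18.0, 36.8 and 15.9 CPM. Of these, miR-1292-5p, miR-12136 and miR-365a-5p had been high at 36 h, so their 48 h values lay nearer to untreated cells, whereas miR-4521 lay further from them.

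The hepatocyte label was checked against its markers. miR-192-5p, at 2406, 1837, 3044 and 3002 CPM, miR-194-5p, at 70.9, 67.3, 91.6 and 91.4 CPM, and miR-148a-3p were present in every library, miR-122-5p was low, and miR-885-5p had 0 reads in all 4. The summed CPM of the 7 hepatocyte-enriched miRNAs, which include both strands of miR-455, was 21055, 27408, 17738 and 17953. It was mostly miR-148a-3p, which alone of them was higher at 24 h than in untreated cells. Of the 5 muscle markers, miR-1-3p was the only member, at 21.9, 27.5, 53.1 and 26.2 CPM, and the sum went from 23.3 CPM in untreated cells to 54.0 at 36 h and 27.5 at 48 h. The 7 blood markers summed to 15.4, 15.2, 79.1 and 36.1 CPM, mostly miR-451a, while miR-223-3p had 0 reads throughout. The 7 fibroblast and endothelial markers summed to 446, 497, 1083 and 861 CPM, mostly miR-143-3p and miR-126-3p. The 7 neuronal markers summed to 3826, 3801, 7592 and 7423 CPM, nearly all miR-128-3p, and miR-124-3p had 0 reads. The sums of these 4 other lists were each highest at 36 h, but not every marker rose with its sum. Of the 4 neuronal markers that are members, 3 were above untreated cells at 36 h. The other, miR-137-3p, was at 8.86 CPM in untreated cells and 2.09 at 36 h. Markers below the mean count of 10 went both ways, such as miR-142-3p (1.81 and 1.26 CPM) and miR-145-5p (0.18 and 10.5 CPM). The part of other cells or of carried-over RNA in the 36 h values was not tested.

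The siRNA 1 course of the same series offers the nearest comparison, and both courses share the untreated library. On a common scaling of all 7 libraries, with 458 members, siRNA 1 put 25, 51 and 117 members past 2-fold at 24, 36 and 48 h, and siRNA 2 put 49, 138 and 126. The 2 siRNAs differed from each other by 2-fold or more for 39 members at 24 h, 172 at 36 h and 28 at 48 h, so that they were farthest apart at 36 h, the time whose libraries lie near other times. For siRNA 1 the step from 24 to 36 h held 36 members and that from 36 to 48 h 135, the reverse of siRNA 2 with 142 and 60. A difference of slopes was called for 0 of 458 members by edgeR (0%; 4 at an unadjusted p under 0.05), 0 by limma-voom (8) and 0 by DESeq2 (10). In a fit of the 6 treated libraries in 3 pairs of equal time, added after the data were seen, siRNA 2 and siRNA 1 differed for 0 of 458 members by edgeR (0%; 5 at an unadjusted p under 0.05), 0 by limma-voom (6) and 0 by DESeq2 (11).

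The 24 to 36 h step of siRNA 2 had a Pearson and a Spearman correlation of 0.67 across the 458 members with the 36 to 48 h step of siRNA 1, a pair of comparisons with no library in common. With the 24 to 36 h step of siRNA 1 the values were 0.02 and -0.05. The points share the scaling and the base composition of the miRNAs, and no test is attached. For miR-101-3p the log2 step was -3.38 under siRNA 2 from 24 to 36 h, and 0.25 and then -2.94 under siRNA 1. For miR-301a-3p these were -4.40, 0.58 and -2.08.

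**Figure D5:**
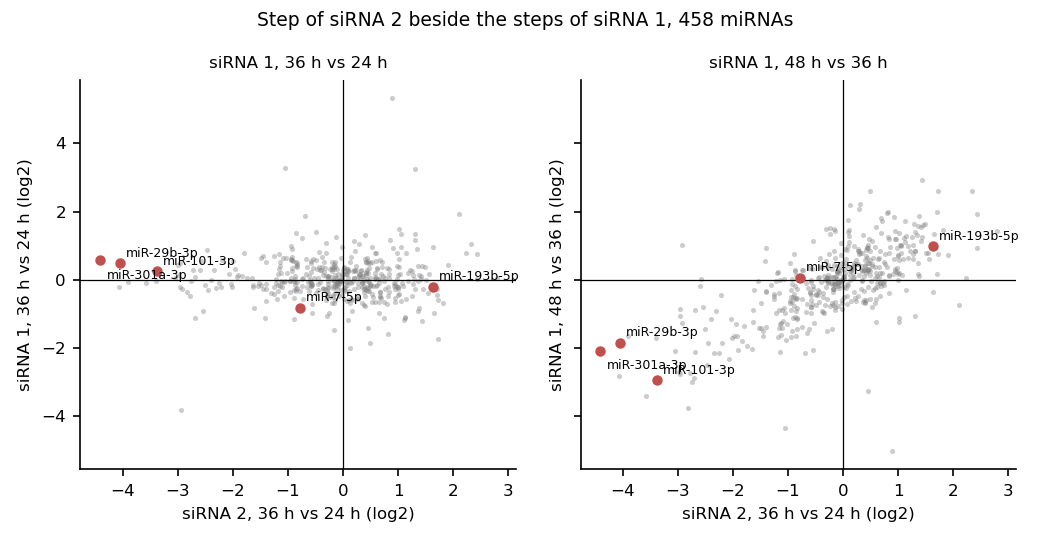
Each grey point is 1 of 458 members, with the log2 ratio of 36 against 24 h under siRNA 2 on the horizontal axis and a step of siRNA 1 on the vertical axis (left 36 against 24 h, right 48 against 36 h), and named miRNAs in red. The cloud is flat on the left (Pearson 0.02) and tilted on the right (0.67).

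The 5 smallest p-values of the slope difference belonged to miR-122-5p, miR-23c, miR-4521, miR-1-3p and miR-1247-5p, with unadjusted p of 0.0282, 0.0321, 0.0449, 0.0499 and 0.0528 and an adjusted p of 0.987 for each by edgeR. miR-122-5p had log2 ratios to untreated cells of -3.13, -2.66 and -3.38 under siRNA 2 and of -0.49, 0.06 and -3.19 under siRNA 1. It was thus low from 24 h under siRNA 2 and at 48 h alone under siRNA 1. miR-7-5p was low under both siRNAs at 24 h, at -0.91 under siRNA 2 and -0.85 under siRNA 1. miR-1246 was high under both at all 3 times, with 24 h values that lay 1.05 apart (siRNA 2 above siRNA 1) and 48 h values of 3.08 and 3.09. The value of miR-1-3p rests on the 36 h library of siRNA 1, where its log2 ratio to untreated cells was 5.22, and without that library the slope difference of -4.18 became 0.77.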

How the data were processed

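Small RNA was sequenced from HepG2 cells, 1 library per siRNA and time. Per the labels' protocols, libraries were ligated with an NEB kit from 2 ug of total RNA. The values the authors deposited are unnormalized counts of reads for every mature miRNA, in a file for each library. The name of an aligner, counter or build is not given in the sources used here. The summary lines of a file entered neither sizes nor tests, and reads with no feature made up 56.9% (untreated) and 82.0% to 84.2% (siRNA 2). Each miRNA is listed once, and 4 members share their mature sequence with another entry (miR-199a-3p, miR-365a-3p, miR-365b-3p and miR-519a-5p), which makes their counts uncertain.

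Counts were scaled with TMM factors over the members. Log2 CPM used a prior count of 2, scaled to library size. The linear trend in hours, the 3 siRNA 2 libraries against untreated, and the difference between the slopes of siRNA 2 and siRNA 1 (7 libraries) were tested with edgeR 4.0.16 (R 4.3.3), quasi-likelihood F-test, Benjamini-Hochberg adjustment over all members, threshold 0.05. The single untreated library is taken to scatter as the treated ones do. SE values are those for which the squared ratio to the log2 change equals F. Ratios between 2 single libraries are descriptions, counted past 2-fold, with 95% exact Poisson intervals where given. DESeq2 1.42.0 and limma-voom (limma 3.58.1), other scales, count filters and fits without 1 library were alternatives. Removal of a linear G and C trend from the 2-fold counts, the 48 h or the siRNA 1 36 h library in place of the 36 h one, and siRNA pairs by time were added after the data were seen. The scripts were tested on simulated counts.

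Named miRNAs are the 10 trends with the smallest p-values in each direction, the 5 of the course coefficient, the 5 highest and 5 lowest ratios of each comparison (mean count of at least 50), the 5 smallest p-values of the slope difference and the 10 most abundant. Others are examples of families, clusters, arms or marker lists, or were chosen after their values were seen, as were the matches to structural RNAs. The members and lists were chosen with earlier results of these data known. Sequences come from the deposited files, loci from RefSeq (GRCh38.p14) and GENCODE 29.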

Additional observations from a re-analysis of the deposited data

Results flagged for a closer look

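Reads that the counting gave to no feature lie outside the comparisons above. Their share was 56.9% in the untreated library and 82.0%, 84.2% and 84.1% at 24, 36 and 48 h of siRNA 2. All 3 treated libraries were above the untreated one, and the difference was there at 24 h, when on the TMM scale 50 of 465 members, but with all reads as the scale 358, were past 2-fold. What these reads are was not tested.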

How the results depend on the processing

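Without replicates at any time, ratios between 2 libraries show these libraries only. No analysis paired by replicate was possible because the groups share fewer than 2 replicate numbers. The fit of siRNA 1 and siRNA 2 in pairs by time gave 0 calls by edgeR. Members with few reads carry most counting error. With a mean count of at least 50, members past 2-fold numbered 15 at 24 h, 64 at 36 h, 60 at 48 h, 74 for 36 against 24 h and 17 for 48 against 36 h. With all reads as the scale they were 358, 265 and 256 at 24, 36 and 48 h. With the library labelled siRNA 1 36 h in place of that of siRNA 2 they were 51 at 36 h, 50 for 36 against 24 h and 125 for 48 against 36 h. Size factors of DESeq2, a prior count of 0.5, total miRNA counts and removal of a G and C trend kept each of the 5 counts within 1.5 times.

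Trends over the course, 0 by edgeR, were 20 by DESeq2, 41 with all reads as the scale (0 up), 32 with no count filter (11 up, 21 down), 1 with all 7 libraries and 0 to 15 with 1 library left out, where the 15 came without the 24 h library. The course against untreated gave 3 by DESeq2, 2 with no count filter and 0 to 28 with 1 library left out, with 28 (5 up, 23 down) without 24 h and 2 without 36 h. The slope difference gave 1 with all reads as the scale and 5 with no count filter, all down, and 0 to 0 with 1 library left out. The other alternatives (limma-voom, total counts, size factors, G and C trend, order of times, mean count of 50) gave 0 calls. In each case the cause was not tested, except that fewer libraries or members enter where one was left out or a filter was raised.

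Among the fitted values and the extreme ratios of each comparison, 8 turned in sign. With all reads as the scale the trends of miR-365b-3p, miR-193b-3p, miR-197-3p and miR-365a-3p were -0.10, -0.30, -0.17 and -0.26, the course coefficient of miR-139-5p was -0.0020 and the 24 h ratio of miR-324-5p -0.24. With 1 library left out the trend of miR-12136 lay between -0.067 (without untreated) and 4.67 (without 48 h), and the slope difference of miR-1-3p between -5.33 and 0.77, the latter without the 36 h library of siRNA 1. Of the ratios to untreated cells of 54 named miRNAs, many of them small, 22, 16 and 15 have the opposite sign at 24, 36 and 48 h with all reads as the scale. Of the other single values under an alternative, 642 were counted as unchanged. For fitted values this means the same direction and side of the threshold, and for ratios a value within their counting interval. Of the rest, 53 fitted values newly passed the threshold and 55 ratios lay outside their counting interval.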

Other observations

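Some groups were not yet described. The 3 members of the miR-200 family, which represses ZEB1 and ZEB2, had median log2 ratios to untreated cells of 0.52, 1.52 and 1.01 at 24, 36 and 48 h. At 24 h, however, miR-200b-3p was 2-fold lower than in untreated cells (-1.34). All 3 were 2-fold higher at 36 h (10.3% of all members), from low counts: miR-200b-3p had 34, 5, 45 and 38 reads and miR-200c-3p 109, 79, 109 and 75. The X-linked cluster of miR-105 and miR-767 had a median of 0.43 at 36 h and 0.64 at 48 h, with miR-105-5p at 398, 387, 909.6 and 691 CPM. Of the 10 members from the intronic cluster of CLCN5, 8 were below untreated cells at 24 h and 8 at 36 h (265 and 234 of all 465), with miR-532-5p at 1983, 1641, 1500 and 1304 CPM and miR-500a-3p at 141, 97.2, 89.1 and 73.8 CPM.

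The hairpin of miR-582 had an abundant 3p strand, at 8109, 10609, 2073 and 2460 CPM, and a minor 5p strand, at 208, 405, 199.6 and 328 CPM. The 3p strand, with 40.9% G and C, had the lower step from 24 to 36 h (-2.35 against -1.02), although the 5p strand has 34.8%. In the hairpin of miR-301a the 3p strand had a step of -4.40 and the 5p strand one of 0.88, at 39.1% and 40.9% G and C. miR-6733-5p had 43 and 8 reads in the untreated and 24 h libraries and 0 in both later ones, which allows up to 1.26 and 1.29 CPM. Its mean count of 12.75 met the threshold for members only through the untreated library, which held the most miRNA reads of the course. Its place among the members that were low at all times is thus set in part by that filter.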
